A study of Homo sapiens with 4 samples.

Results

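Windows of 1 Mb that held RNA polymerase II (Pol II) but no 53BP1 were described in MCF10A, an established human line of breast epithelium that does not form tumours, grown under normal conditions. The material was chromatin immunoprecipitation with sequencing (ChIP-seq), a method that isolates the DNA bound by a protein and lists the regions where it is enriched. The study had 4 samples with 1 library each, which were a 53BP1 ChIP, a ChIP of Pol II phosphorylated on serine 5 (S5p), a ChIP of Pol II phosphorylated on serine 2 (S2p) and an input, and the input was not analysed here. All 4 samples were the same untreated line, so the comparisons lie between windows and not between conditions. Chromosomes 1 to 22 were cut into windows from their first base, each listed region was assigned to the window of its start, and the windows were chosen by the listed regions themselves: at least 1 Pol II region and no 53BP1 region. The rule left 337 windows of the 2330 that held Pol II (14.5%). They contained 1838 of the 114685 Pol II regions, of which 1141 were among 61263 S5p regions (1.86%) and 697 among 53422 S2p regions (1.30%). The other 1993 windows with Pol II held 53BP1 as well, and 9 windows held 53BP1 only.

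The largest subunit of Pol II ends in a tail of repeats that is phosphorylated as transcription proceeds. Serine 5 is phosphorylated near the start of genes, by the kinase of the general factor TFIIH, and serine 2 later, as the enzyme elongates towards the end of the gene. 53BP1 is a chromatin protein that is recruited to DNA double-strand breaks and steers their repair, and it was first found as a partner of the tumour suppressor p53. On the megabase scale the human genome alternates between gene-rich stretches and gene-poor ones, and transcription is unevenly spread along chromosomes.

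A window without 53BP1 is one in which no 53BP1 region was listed. The lowest −log10 q-value in the 53BP1 list was 1.32 and its read depth was unknown, so weaker 53BP1 in these windows was not detectable and was not shown to be absent. The rule used the presence of regions in all 3 lists, so the numbers of regions per window are given as a description. With 1 library per ChIP there was no spread between replicates and no test. The fold of a region is the authors' enrichment over background, and it was used within a list only. Intervals are 95% intervals that cover counting error, with regions or windows taken as independent although regions that share a window are not. Where a count was 0, the limit given is the share that 3 counts would make. Positions are in hg19. No genes or cell type markers were matched to them.

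Most windows without 53BP1 held little Pol II. The median number of Pol II regions was 2 (quartiles 1 and 6) in windows without 53BP1, against 45 (quartiles 20 and 82) in windows with it. Exactly 1 Pol II region was present in 114 of the 337 windows (33.8%), and 251 (74.5%) held 5 or fewer. At the other end, 17 windows (5.04%) held more than 20, and the fullest held 82. The share of Pol II windows that lacked 53BP1 was 88.4% (114 of 129, interval 81.5 to 93.3) at 1 Pol II region and 72.6% (69 of 95, 62.5 to 81.3) at 2. It was 45.9% at 3 to 5 regions, 29.3% at 6 to 10, 8.36% at 11 to 20, 3.25% at 21 to 40 and 0.507% at 41 to 80. Above 80 regions, 1 of 508 windows lacked 53BP1. S5p regions covered a median of 1.53 kb of a window without 53BP1 (1.21 to 1.75), against 38.5 kb of a window with it (35.5 to 40.8).

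The sparse windows were mostly windows of S5p alone. Of the 337 windows, 216 (64.1%, 58.7 to 69.2) held S5p and no S2p, 108 (32.0%, 27.1 to 37.3) held both marks and 13 (3.86%, 2.07 to 6.51) held S2p and no S5p. Over all Pol II windows the share with S5p and no S2p was 11.5%, and in windows with 53BP1 it was 53 of 1993 (2.66%, 1.998 to 3.46). In windows with exactly 1 53BP1 region it was 12.7%. This share is tied to the number of Pol II regions in a window, which the rule used. At 1 Pol II region it was 107 of 114 windows without 53BP1 and 15 of 15 with it. At 2 it was 60 of 69 and 12 of 26, at 3 to 5 it was 35 of 68 and 24 of 80, and at 6 to 10 it was 12 of 43 and 1 of 104. No window with 53BP1 held S2p without S5p, which allows a share of up to 0.151%. The 216 windows with S5p alone contained 471 S5p regions, at a median of 2 Pol II regions a window. The 108 windows with both marks contained 670 S5p and 674 S2p regions, at a median of 9 a window, and the 13 with S2p alone contained 23 S2p regions.

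The strongest S5p region of a window was weaker in windows without 53BP1. In 324 windows with S5p and without 53BP1, the strongest S5p region had a median fold of 6.32 (5.66 to 7.14), with quartiles of 4.21 and 10.7 and a range of 2.05 to 60.03. In the 371 windows with exactly 1 53BP1 region, which lie just outside the rule, this median was 24.8 (22.4 to 27.8), with quartiles of 15.6 and 39.7 and a range of 3.29 to 146. The median was higher still with more 53BP1 regions, at 40.2 in windows with 2, 49.7 with 3 to 5 and 70.4 with 6 or more. The ranges of the neighbouring classes overlapped, but the upper quartile of windows without 53BP1 lay below the lower quartile of windows with 1. A window with more S5p regions has more chances of a strong one, and windows with 1 53BP1 region held a median of 6 S5p regions, against 2 in windows without 53BP1. In addition, only in windows with 53BP1 could the strongest S5p region lie on 53BP1 itself. There 90.7% of S5p regions with a fold of 20 to 40 lay on 53BP1, and 99.0% of those at 40 or more. The difference is thus set in part by the rule, and the strongest S5p region off 53BP1 was not taken.

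**Figure D1:**
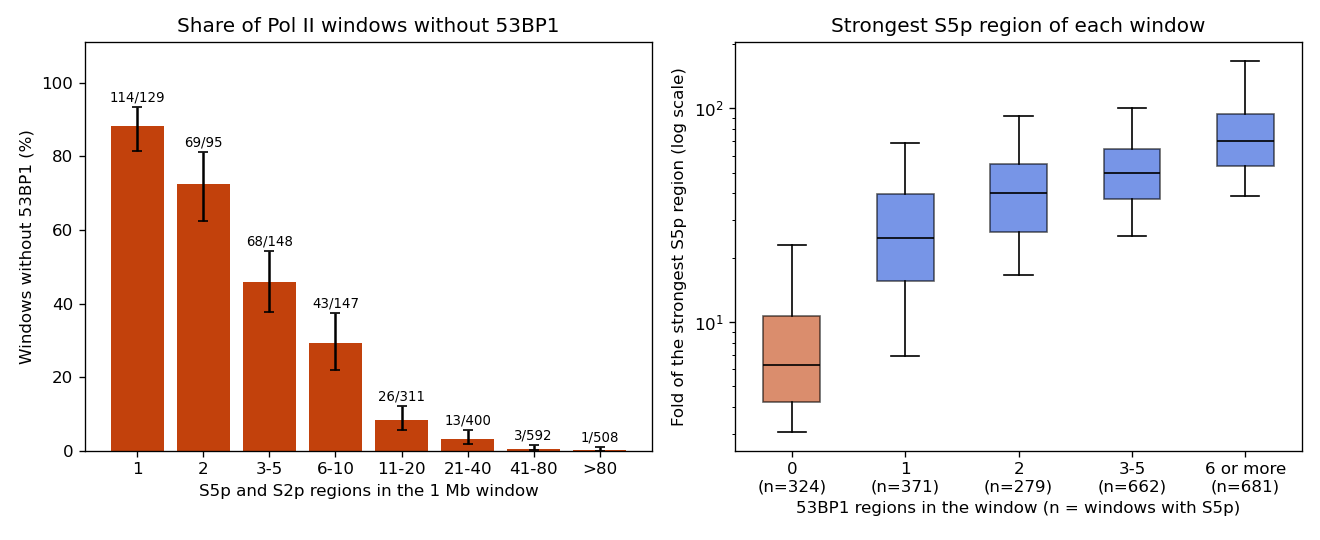
Left, percentage of 1 Mb windows with Pol II that held no 53BP1 region, by the number of S5p and S2p regions in the window, with exact 95% intervals and the counts above the bars. Right, authors' fold of the strongest S5p region in each window on a log axis, by the number of 53BP1 regions in the window (line, median; box, quartiles; whiskers, 5th to 95th percentile). The share without 53BP1 goes down from 88.4% at 1 Pol II region to 1 of 508 windows above 80, and the median strongest fold goes up from 6.32 at 0 to 70.4 at 6 or more 53BP1 regions. In windows with 53BP1 the strongest S5p region may itself lie on 53BP1.

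The difference in the strongest S5p region was also present among windows with similar numbers of Pol II regions. Where a window held a single Pol II region and it was S5p, its median fold was 4.21 (3.87 to 4.56, range 2.05 to 22.9) in 107 windows without 53BP1. It was 12.2 (4.13 to 22.5, range 3.29 to 33.7) in 15 windows with 53BP1. At 6 to 10 Pol II regions the median strongest fold was 9.88 without 53BP1 and 26.9 with it, at 11 to 20 it was 13.7 and 37.2, and at 21 to 40 it was 20.7 and 44.7. Among windows with S5p and no S2p, the median was 4.84 (4.59 to 5.47) in the 216 windows without 53BP1 and 10.4 (8.61 to 13.3) in the 53 with it. In each of these classes the windows without 53BP1 had the lower median, but the intervals overlapped for windows with a single Pol II region. In these classes too, the strongest S5p region could lie on 53BP1 only in windows with 53BP1. The lower medians are thus set in part by the rule.

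Taken one by one, the S5p regions in windows without 53BP1 were not the weakest of their list. Their median fold was 4.21 (4.02 to 4.38), against 3.76 (3.75 to 3.76) for the 60122 S5p regions in windows with 53BP1 and 3.48 for the 50815 of those that did not lie on 53BP1. This order was not kept under 2 other settings, both of which also changed which windows were chosen. With a −log10 q-value of at least 5 in all 3 lists, the medians were 5.40 (5.21 to 5.61) in 430 windows without 53BP1 and 5.55 in windows with it, a value inside that interval. With Pol II lists as long as the 53BP1 list they were 13.5 (12.6 to 14.7) in 116 windows without 53BP1 and 25.8 in windows with it. The median −log10 q-value was 7.99 (7.34 to 8.38) in windows without 53BP1 and 5.90 (5.87 to 6.001) in windows with it. Whether windows without 53BP1 held fewer of the strong regions depended on what they were set against. Of their 1141 S5p regions, 162 (14.2%, 12.2 to 16.4) belonged to the strongest quintile of the list, against 20.1% (19.8 to 20.4) in windows with 53BP1 and 6.57% (6.36 to 6.79) of the regions there that did not lie on 53BP1. The weakest quintile contained 183 (16.0%). The 162 were spread over 109 windows. Within the strongest quintile, whose lowest fold was 8.40, the median fold was 12.2 (11.4 to 13.2) in windows without 53BP1. It was 24.0 (23.5 to 24.4) in windows with 53BP1, and 11.5 (11.4 to 11.7) for the 3340 regions there that did not lie on 53BP1.

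S5p regions in windows without 53BP1 were shorter than those in windows with it, and isolated. Their median width was 703 bp (665 to 736), against 975 bp (965 to 985) in windows with 53BP1. It was 823 bp (817 to 831) for the regions there that did not lie on 53BP1. In the widest quintile of the list were 8.15% of them (6.63 to 9.89), against 20.2% in windows with 53BP1 and 14.1% of the regions there not on it. In the weakest fold quintile the median width was 531 bp (494 to 583) without 53BP1, against 580 bp (573 to 587) with it. In the next to strongest it was 830.5 bp (758 to 951), against 1458 bp (1426 to 1489), and in the strongest 1581.5 bp (1375 to 1908), against 2515.5 bp (2468 to 2567). For regions in windows with 53BP1 that did not lie on it, the last 2 medians were 1477 and 2019.5 bp. Width also went with overlap. S5p regions that met no S2p had a median of 640.5 bp (612 to 676) without 53BP1. It was 647 bp in windows with 53BP1 for those not on it. S5p regions that met S2p had 1161 bp (1047 to 1316), against 1065 bp for those not on 53BP1. Both intervals held the value for regions not on 53BP1. Against all regions in windows with 53BP1, at 679 and 1389 bp, both medians were lower. The nearest Pol II region of either list that did not overlap lay 9.76 kb away in the median (7.23 to 12.9), against 0.904 kb (0.892 to 0.916) in windows with 53BP1. No other Pol II region lay within 10 kb for 570 of 1141 (50.0%, 47.0 to 52.9), against 11.6% (11.4 to 11.9), and none within 100 kb for 284 (24.9%, 22.4 to 27.5), against 1.37% (1.28 to 1.47). That distance is tied to the number of regions in a window, which the rule used.

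S2p regions in windows without 53BP1 differed less from the rest of their list. Their median fold was 3.52 (3.40 to 3.60), against 3.58 (3.56 to 3.59) in windows with 53BP1, and their median width was 1027 bp (950.0 to 1099), against 1101 bp (1088 to 1113). For the regions there that did not lie on 53BP1 the medians were a fold of 3.40 and a width of 1040 bp (1027 to 1053). That width lay inside the interval for windows without 53BP1, and that fold at the lower end of its interval. The strongest S2p quintile contained 107 of the 697 regions (15.4%, 12.8 to 18.2), against 20.1% (19.7 to 20.4) in windows with 53BP1 and 14.6% (14.3 to 15.0) of the regions there that did not lie on it, so that the interval held the last value. No S5p or S2p region in these windows was in the strongest 1% of its list, which allows a share of up to 0.263% of 1141 and 0.430% of 697. These counts of 0 were set in part by the rule, which leaves out regions on 53BP1. In windows with 53BP1, 99.0% of S5p and 82.9% of S2p regions with a fold of 40 or more lay on 53BP1. The neighbours of S2p regions in windows without 53BP1 were close. The nearest non-overlapping Pol II region was 0.923 kb away in the median (0.837 to 1.03), against 0.763 kb in windows with 53BP1. S2p was gathered in few windows: the 10 fullest windows held 245 of the 697 S2p regions (35.2%, 31.6 to 38.8) and 188 of the 1141 S5p regions (16.5%, 14.4 to 18.8). The fullest windows were picked by their number of S5p and S2p regions, which raises both shares. No such share was taken for windows with 53BP1.

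S5p and S2p met less often in windows without 53BP1. An overlap of at least 1 bp with S2p was found for 263 of 1141 S5p regions (23.1%, 20.6 to 25.6), against 60.4% of all S5p regions and 61.1% (60.7 to 61.5) of those in windows with 53BP1. From the other side, 222 of 697 S2p regions met S5p (31.9%, 28.4 to 35.5), against 55.0% of all S2p regions and 55.3% (54.9 to 55.8) in windows with 53BP1. Regions on 53BP1, which the rule leaves out, raised the shares in windows with 53BP1. For the regions there that did not lie on 53BP1 they were 57.4% (57.0 to 57.8) for S5p and 48.0% (47.5 to 48.5) for S2p. Part of the difference in overlap lay in the windows that held 1 mark only. There 471 of the S5p regions had no S2p region in their window, and 6 of them met one across its border. In windows with both marks the shares were 257 of 670 S5p regions (38.4%, 34.7 to 42.2) without 53BP1, against 61.2% (60.8 to 61.6) with it, and 222 of 674 S2p regions (32.9%, 29.4 to 36.6), against 55.3% (54.9 to 55.8). The values with 53BP1 include regions that lay on it. The single fullest window raised the shares: without it the shares were 229 of 1106 S5p regions (20.7%) and 182 of 650 S2p regions (28.0%). Without the 10 fullest windows, a setting chosen after seeing the data, they were 15.7% and 26.5%.

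The difference in overlap was present in each fold quintile of both lists. In the weakest S5p quintile, 25.1% (19.0 to 32.1) of regions in windows without 53BP1 met S2p, against 53.0% in windows with 53BP1, and in the next to strongest it was 16.1% (12.5 to 20.1), against 57.4%. In the strongest S5p quintile the share was 37.7% (30.2 to 45.6), against 77.2% (76.4 to 77.9), and 57.9% (56.2 to 59.6) for the regions of windows with 53BP1 that did not lie on it. For S2p the share that met S5p was 20.5% (13.8 to 28.5) in the weakest quintile, against 34.5%, and 69.2% (59.5 to 77.7) in the strongest, against 92.9%. For S2p regions of windows with 53BP1 that did not lie on it, these shares were 32.6% and 88.7% (87.9 to 89.4). In all 5 quintiles of both lists the interval for windows without 53BP1 lay below the value for windows with 53BP1. At the very top, where few regions were left, both S5p regions with a fold of 40 or more and all 4 S2p regions with a fold of 20 to 40 met the other mark, against 99.5% and 99.9% in windows with 53BP1.

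**Figure D2:**
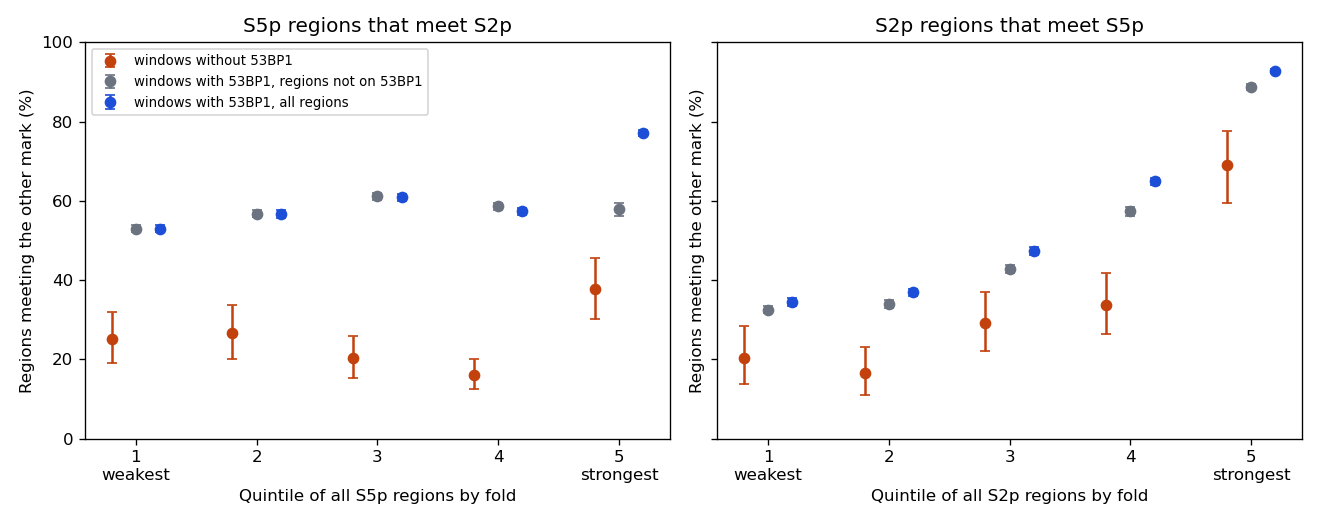
Percentage of S5p regions that met an S2p region (left) and of S2p regions that met an S5p region (right), by quintile of the whole list from weakest to strongest fold, with exact 95% intervals. Orange points are windows without 53BP1, grey points the regions of windows with 53BP1 that did not lie on 53BP1, and blue points all regions of windows with 53BP1. The orange points lie lowest in every quintile, at 16.1% to 37.7% for S5p and 16.5% to 69.2% for S2p.

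The difference in overlap depended on how full the window was, and turned in the fullest. By fullness, the values for windows with 53BP1 include regions that lay on it, which were not taken apart. In windows with 1 Pol II region there was nothing to meet, and with 2 it was 1 of 125 S5p regions in windows without 53BP1, against 12 of 38 with it. With 3 to 5 Pol II regions, 6.34% of S5p regions (3.42 to 10.6) met S2p in windows without 53BP1, against 45 of 225 (15.0 to 25.8) in windows with 53BP1. With 6 to 10 it was 15.4% (11.1 to 20.6), against 33.5% (29.2 to 38.0), and with 11 to 20 it was 33.3% (26.9 to 40.3), against 42.0% (40.04 to 44.1). With 21 to 40 it was 47.4% (39.3 to 55.6), against 49.9% (48.6 to 51.2), and with 41 to 80, where 3 windows lacked 53BP1, it was 51.4% (39.4 to 63.1), against 58.4% (57.7 to 59.1), so that the intervals overlapped in both classes. For S2p regions that met S5p the shares did not draw closer in the same way. They were 22.8% in windows without 53BP1, against 46.8% with it, at 3 to 5 Pol II regions, and 26.2%, against 44.8%, at 6 to 10. At 11 to 20 they were 31.4%, against 44.5%, at 21 to 40 they were 29.8%, against 46.4%, and at 41 to 80 they were 27.9%, against 53.1%. Above 80 Pol II regions the single window without 53BP1 had the higher shares, 97.1% of its S5p regions (85.1 to 99.9), against 66.6% in the 507 windows with 53BP1, and 85.1% of its S2p regions (71.7 to 93.8), against 59.4%.

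Where both marks were present, the strongest S5p and the strongest S2p region were often different places. Of the 108 windows without 53BP1 that held both, the strongest pair overlapped in 19 (17.6%, 10.9 to 26.1), against 103 of 324 windows with 1 53BP1 region (31.8%, 26.8 to 37.2) and 28.5% (26.3 to 30.7) of windows with 2 or more. Where they lay apart, the median gap was 110.0 kb (71.0 to 166) in windows without 53BP1, against 57.1 kb (42.9 to 70.6) in windows with 1 53BP1 region and 117 kb (103 to 135) with 2 or more. Only in windows with 53BP1 could the strongest S5p region lie on 53BP1, so these differences are set in part by the rule. The windows were also not matched for their number of Pol II regions.

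**Figure D3:**
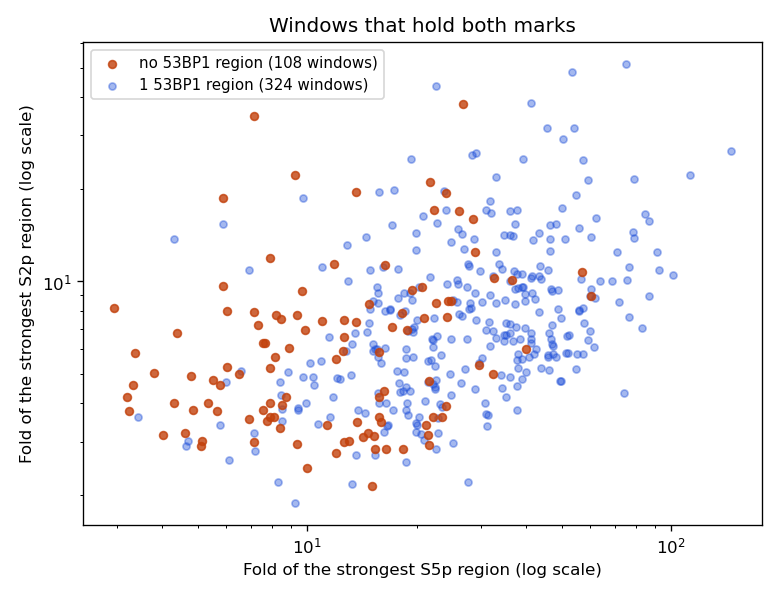
Authors' fold of the strongest S5p region (horizontal) and of the strongest S2p region (vertical) in each 1 Mb window that held both marks, on log axes. Orange points are the 108 windows without 53BP1 and blue points the 324 windows with 1 53BP1 region. The orange points are shifted to the left and include windows with a strong S2p region beside a weak S5p region. In windows with 53BP1 the strongest S5p region may itself lie on 53BP1.

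Few of the strong S5p regions lay in these windows. Of the 7107 S5p regions with a fold of 20 or more, 29 (0.408%, 0.273 to 0.586) lay in windows without 53BP1, against 1.86% of all S5p regions. Each of the 29 lay in a different window. Of the other 7078, 6662 (94.1%, 93.5 to 94.7) lay on 53BP1 themselves, a kind that the rule leaves out. Counted by region, a fold of 20 or more was reached by 29 of 1141 in windows without 53BP1. In windows with 53BP1 it was reached by 7078 of 60122. Among the 50815 of those that did not lie on 53BP1 it was reached by 416, a smaller share than 29 of 1141. The 29 regions were compact, with a median width of 1860.0 bp (1480.0 to 2259), against 2234.5 bp (1964 to 2497) for the 416 equally strong regions in windows with 53BP1 that did not lie on it. S2p was met by 21 of the 29, at a median S2p fold of 4.13 (3.60 to 7.39). In the 416 regions, 323 met S2p, at a median S2p fold of 5.80 (5.23 to 6.43). These intervals overlapped for both width and S2p fold.

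The 10 strongest S5p regions had folds of 26.8 to 60.03 and lay between the 91.2nd and the 98.3rd percentile of the S5p list. First among them, at 60.03, stood chromosome 2 from 67624002 to 67626431, 2430 bp wide and met by an S2p region of fold 4.13. Second, at 56.8, was chromosome 18 from 13725836 to 13727968, where S2p had a fold of 7.39. Chromosome 12 from 38710229 to 38711726 reached 39.8, and chromosome 6 from 161412088 to 161413610 reached 36.4. These 4 were 1498 to 2430 bp wide, each met a single S2p region, and the nearest 53BP1 region was 404 to 690.3 kb away. The narrowest of the 10 lay on chromosome 14 from 29145226 to 29146086, 861 bp wide with an S5p fold of 32.5. Chromosome 15 from 29561525 to 29562561 was nearly as narrow, 1037 bp wide with an S5p fold of 32.7. The chromosome 14 region was also the farthest from 53BP1, at 1882 kb. The others ran on chromosome 8 from 32404806 to 32410655, on chromosome 18 from 66381442 to 66382805, on chromosome 20 from 31988098 to 31989774 and on chromosome 2 from 143630411 to 143675759, with S5p folds of 29.7, 29.0, 28.5 and 26.8. The chromosome 20 region met no S2p, and the last, at 45349 bp, was the widest S5p region of any window without 53BP1.

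The 10 strongest S2p regions were of another shape. They were 4685 to 34787 bp wide (median 11069.5 bp), with S2p folds of 17.0 to 38.1, and all 10 met S5p, at a median S5p fold of 7.25 and a range of 3.16 to 21.8. The median width of the 10 strongest S5p regions was 1600.0 bp. The strongest S2p region, with a fold of 38.1 over 15154 bp, ran from 143804049 to 143819202 on chromosome 2. Chromosome 12 from 71992715 to 72004564 had an S2p fold of 34.7 in a window with only 5 Pol II regions, and its nearest 53BP1 region was 52.6 kb away. Chromosome 15 from 32931347 to 32944864 had an S2p fold of 22.3, and its nearest 53BP1 region was 1312 kb away. On chromosome 2, 31531343 to 31566129 (fold 21.1) and 31585423 to 31614589 (fold 17.4) lay in one window and were the widest S2p regions of the set, at 34787 and 29167 bp. The rest ran on chromosome 11 from 104810572 to 104818080, on chromosome 7 from 137529239 to 137533923 and from 126985110 to 126993888, on chromosome 18 from 10554686 to 10564974 and on chromosome 6 from 118031856 to 118037857, with S2p folds of 17.0 to 19.6. In all, 25 of 4853 S2p regions with a fold of 10 or more (0.515%) lay in windows without 53BP1, in 17 of them, against 1.30% of all S2p regions. Their median width was 10289 bp (5560.0 to 12954), against 10016.5 bp (9668 to 10391) for the 2696 in windows with 53BP1 that did not lie on it.

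The fullest window without 53BP1 was on chromosome 2 from 143000001 to 144000000, with 35 S5p and 47 S2p regions. All of them lay between 625 and 829 kb from the window's start. S5p regions covered 155 kb and S2p regions 142 kb, 34 of the 35 S5p regions met S2p, and 40 of the 47 S2p regions met S5p. The strongest S5p region, the one of 45349 bp, lay near one end of this stretch and the strongest S2p region near the other, with 128 kb between them. Neither neighbouring window held 53BP1, and the nearest 53BP1 region was 1261 kb away. The 5 widest S5p regions of all windows without 53BP1 lay in this window or in the one on chromosome 2 from 31000001 to 32000000. They were 11773 to 45349 bp wide, and all 5 met S2p. The widest S2p regions after the 2 on chromosome 2 were on chromosome 6 from 161545368 to 161567813 (22446 bp), chromosome 8 from 129106688 to 129126550 (19863 bp) and chromosome 20 from 31024519 to 31042238 (17720.0 bp), and each of them met 3 or 4 S5p regions.

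The next fullest windows were looser. Chromosome 20 from 31000001 to 32000000 held 31 S5p and 28 S2p regions in separate groups, 34 of them in the first 450.0 kb and 25 after an empty stretch of 463 kb, and 17 of the S5p regions met S2p. The neighbouring windows held 14 and 10 53BP1 regions. Chromosome 8 from 129000001 to 130000000 held 23 S5p and 32 S2p regions, with all 32 S2p regions in the first 134 kb, where S2p covered 98.9 kb in the window and S5p 14.3 kb. Its strongest S5p region, with a fold of 7.93, lay 747 kb from its strongest S2p region, with a fold of 12.0. Chromosome 16 from 16000001 to 17000000 held 20 S5p and 26 S2p regions, and only 4 of the S5p regions met S2p. Chromosome 12 from 47000001 to 48000000 (37 Pol II regions) and chromosome 7 from 93000001 to 94000000 (33) came next. Chromosome 2 from 31000001 to 32000000 had 32, with 93.2 kb under S5p and 110 kb under S2p. The list ends with chromosome 12 from 79000001 to 80000000 (30, of which 25 were S2p), chromosome 18 from 13000001 to 14000000 (30) and chromosome 7 from 137000001 to 138000000 (29).

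**Figure D4:**
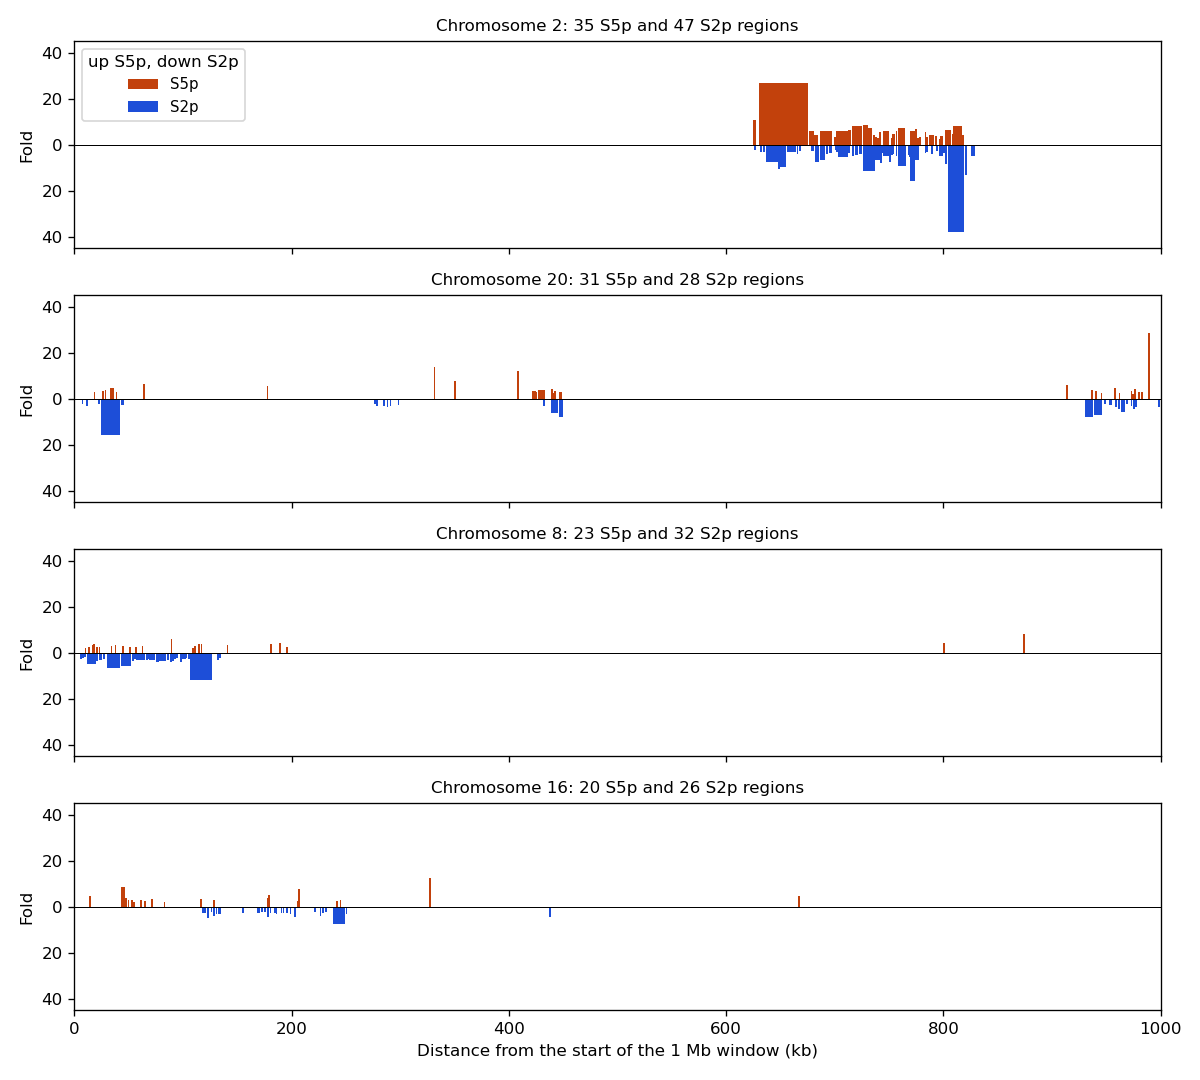
S5p regions (orange, upwards) and S2p regions (blue, downwards) in the 4 windows without 53BP1 that held the most Pol II regions; the horizontal axis is the distance from the start of the window in kb, bar width is region width (at least 1.5 kb drawn) and bar height is the authors' fold in each list. On chromosome 2 all 82 regions lie in one stretch of both marks, and on chromosome 20 they lie on either side of an empty stretch of 463 kb. On chromosome 8 all 32 S2p regions lie in the first 134 kb, with gaps between them.

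Windows without 53BP1, which were 14.5% of Pol II windows, mostly did not adjoin one another. How many would adjoin at that share was not tested. They formed 279 runs of adjacent windows, of which 231 were 1 window long, 40 were 2, 6 were 3 and 2 were 4. Both neighbouring windows held 53BP1 for 135 of the 337 (40.1%), 1 neighbour did for 158 (46.9%) and neither did for 44 (13.1%). For 118 windows (35.0%) at least 1 neighbour held no region of any list. Of all 2798 windows between the first and last occupied window of each chromosome, 459 (16.4%) held no region. A window has 2 neighbours, so these 2 shares are not alike. The neighbour counts were not made for windows with 53BP1. The longest runs were on chromosome 2 from 141000001 to 145000000, with 40 S5p and 48 S2p regions, and on chromosome 4 from 115000001 to 119000000, with 4 S5p regions and no S2p. Runs of 3 included chromosome 5 from 23000001 to 26000000 with 6 S5p and no S2p regions, chromosome 7 from 81000001 to 84000000 with 4 and none, and chromosome 7 from 124000001 to 127000000 with 10 and 9. In the 44 windows whose neighbours also lacked 53BP1, 34.2% of S5p and 52.9% of S2p regions met the other mark. Without the fullest window these shares were 6 of 82 (7.32%, 2.73 to 15.2) and 6 of 40 (15.0%, 5.71 to 29.8).

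The distance to 53BP1 was set in part by the rule, which keeps it out of the window. The nearest 53BP1 region was 623 kb away in the median for S5p regions in windows without 53BP1 (601 to 649) and 507 kb for their S2p regions (431 to 554). In windows with 53BP1 the medians were 18.2 and 20.04 kb. No member region touched a 53BP1 region across a window border, but 46 S5p regions (4.03%) and 47 S2p regions (6.74%) had one within 50 kb, and the closest was 3.22 kb from an S5p region.

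Chromosomes differed in the share of Pol II windows without 53BP1. It was highest on chromosome 4, with 33 of 151 (21.9%, 15.5 to 29.3), and chromosome 18, with 13 of 62 (20.97%, 11.7 to 33.2). It was lowest on chromosome 22, with 0 of 32 (which allows a share of up to 9.38%), chromosome 19, with 2 of 56 (3.57%, 0.435 to 12.3), and chromosome 17, with 3 of 76 (3.95%, 0.822 to 11.1). Chromosome 1 had 21 of 210 (10.0%, 6.30 to 14.9) and chromosome 2 the most windows, 38 of 206 (18.4%, 13.4 to 24.4). The other 15 chromosomes lay between 12.0% and 18.3%, and their intervals overlapped. Chromosome 2 also held the most member regions, 136 S5p and 115 S2p, against 3 S5p and no S2p on chromosome 19.

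**Figure D5:**
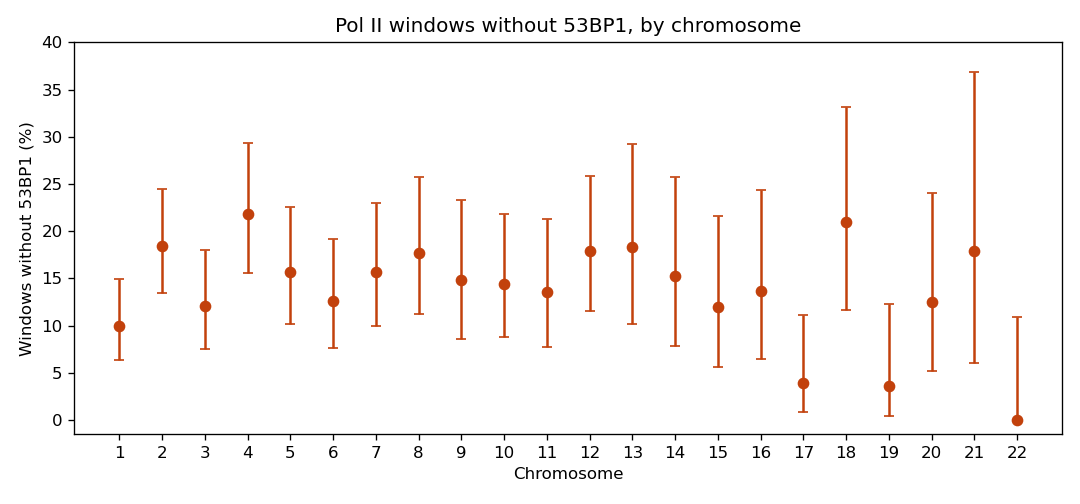
Percentage of 1 Mb windows with Pol II that held no 53BP1 region, by chromosome, with exact 95% intervals. Chromosomes 17, 19 and 22 lie lowest, at 3.95%, 3.57% and 0%, and chromosomes 4 and 18 highest, at 21.9% and 20.97%.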

How the data were processed

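ChIP-seq of 53BP1, Pol II S5p and Pol II S2p in MCF10A cells was analysed from deposited lists of enriched regions, 1 list per library. Cells were fixed with formaldehyde and chromatin sonicated to fragments of 250 to 500.0 bp, per the labels' protocols. The submitters' processing notes name the build hg19 and the base-call converter bcl2fastq 2.20.0.422. Which aligner and peak caller were run, with which control, and whether reads were pooled is not given in the sources used here. Each region has the authors' fold (a ratio over background) and a −log10 p-value and −log10 q-value as deposited. The deposited score and −log10 p-value were not used further. Read depth is unknown, so weak regions may be missed and numbers and widths do not compare the factors. The lists held 11605, 62532 and 54601 regions for 53BP1, S5p and S2p, and 11370, 61263 and 53422 lay on chromosomes 1 to 22.

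Regions were assigned to 1 Mb windows by their start, and a region of one list met another when they shared 1 bp or more. Quintiles by fold were taken over each whole list. Intervals are Clopper-Pearson (exact) for shares and order-statistic (exact binomial) for medians, both at 95% and for counting error only. For a count of 0, the text gives the share of 3 counts. No test was made, since each ChIP had 1 library. Windows, regions and runs were named by rule: the 10 fullest windows, the 10 strongest and 5 widest regions of each list and the 5 longest runs. The rule and the measures were chosen with earlier results of these data known. The gene and sequence tables at hand were of GRCh38, so no gene or sequence was given and no position converted. The steps were tested on simulated data. Tools were scipy 1.17.1, pandas 2.3.3, numpy 2.4.6 and matplotlib 3.10.9 under Python 3.11.15.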

Additional observations from a re-analysis of the deposited data

Results flagged for a closer look

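The rule left out chromosome X, which also held windows with Pol II and without 53BP1. There were 41 of them among 114 windows with Pol II (36.0%, interval 27.2 to 45.5), with 129 S5p and 86 S2p regions, against 14.5% of windows on chromosomes 1 to 22. It is given because no comparison of the report uses that chromosome. Its part in the results was measured only by adding it, which changed 337 windows to 378.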

How the results depend on the processing

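In every alternative run, regions in windows without 53BP1 met the other mark less often than the remaining regions (12 of 12 for S5p and 12 of 12 for S2p) and were narrower (11 of 11 for each list). These tallies count the direction only, and in some runs the interval held the value of the remaining regions. The S5p median fold was higher than that of the remaining regions in 9 of 11 alternatives and lower in 2, the S2p median fold lower in 10 of 11 and higher in 1, and the strongest-quintile share lower in 11 of 12 and equal in 1. The remaining regions include those on 53BP1. Against regions not on it, in the main run only, the strongest-quintile share (14.2%, against 6.57%) and S2p median fold (3.52, against 3.40) were higher. The overlap shares, the widths and the S5p median fold kept their direction. Alternative runs were not set against regions off 53BP1. With a −log10 q-value of 5 or more, 37.8% of S2p regions met S5p, the median folds were 5.40 (S5p) and 4.599 (S2p), the widths 985.5 and 1858 bp and the strongest-quintile share 25.6%. With the upper 50% of 53BP1 regions by fold there were 646 windows with 4355 S5p and 3331 S2p regions, shares that met the other mark of 37.7% and 43.5%, an S5p fold of 3.89, an S5p width of 805 bp and a strongest-quintile share of 17.5%. With Pol II lists as long as the 53BP1 list there were 116 windows with 132 S5p and 112 S2p regions, shares of 7.58% and 11.6%, folds of 13.5 and 7.57, widths of 1531.5 and 4514.5 bp and, by construction, a strongest-quintile share of 100%. Windows of 500.0 kb gave 919 windows with 2871 S5p and 1978 S2p regions, an S5p share of 26.8% and an S5p fold of 3.996. Windows of 2 Mb gave 86 windows with 365 and 296 regions and an S2p width of 889 bp. Shifting the windows by 500.0 kb gave an S2p share of 36.3%, an S5p fold of 3.996 and an S2p width of 923 bp. With at least 5 Pol II regions there were 106 windows, an S5p share of 32.9% and an S5p width of 764 bp. Where both neighbours lacked 53BP1 there were 44 windows with 117 S5p and 87 S2p regions, shares of 34.2% and 52.9%, an S2p fold of 3.80 (the remaining S2p regions had 3.58) and an S5p width of 947 bp. The intervals of that S2p share (41.9 to 63.7) and S5p width (748 to 1348) held the values of the remaining regions, 55.0% and 968 bp. For S2p width the interval held the remaining value there, with at least 5 Pol II regions and with assignment by summit. Requiring 50% of the region covered gave shares of 18.3% and 22.5%. Without the 10 fullest windows, added after seeing the data, the shares were 15.7% and 26.5% and the S2p width 931.5 bp. Larger or smaller windows and other list lengths change the counts by construction; the other causes were not tested. No paired analysis was possible because every target, 53BP1, S5p and S2p, has a single library. Gene names and families could not be run without an hg19 annotation. Unknown depth limits every statement on missing 53BP1.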
